A study of Mus musculus with 15 samples.

Results

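Actins are the proteins of the thin filaments that myosin pulls on in muscle and of the filaments that shape and move every other cell. Each striated muscle fibre builds its thin filaments from a sarcomeric actin, which is Acta1 in adult skeletal muscle and Actc1 in the heart, and Actc1 is also the sarcomeric actin of skeletal muscle before birth. Acta2 is the actin of vascular smooth muscle, and Actb and Actg1 are the cytoplasmic actins. The 5 actin genes and C130080G10Rik, a transcript that GENCODE classes as antisense and that lies beside Actc1, were followed through 15 libraries of tibialis anterior, a fast muscle of the mouse leg. The 6 genes were taken by their symbols from the 30672 genes of the count table, and all 6 passed the filter on low counts. C130080G10Rik, and with it Actc1, was chosen by its measured log2 fold change between untreated Mtm1-/y and WT muscle, where its level was low, so the values of that comparison are given as a description without a test.

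The mice were 129Pas males aged 7 weeks. Wild-type mice (WT) and Mtm1-/y mice gave 4 libraries each without treatment. With tamoxifen (TAM), a modulator of the estrogen receptor, 4 libraries came from wild-type mice (WT + TAM) and 3 from mutants (Mtm1-/y + TAM). Mtm1 encodes the phosphoinositide phosphatase myotubularin, whose loss causes the X-linked form of centronuclear myopathy, a muscle disease with misplaced nuclei and weak fibres. The labels describe each library as a separate sample of its group and do not state the tamoxifen regimen or whether littermates were used, so p-values measure the spread between these libraries.

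Total counts ranged from 18042558 to 45823277 per library. Levels are given as counts per 1000000 (CPM) scaled by library size and the TMM factor, and levels of different genes are compared only as CPM per kilobase of exon. Mtm1 itself was at 15.3 ± 0.294 CPM in WT, 16.3 ± 1.88 CPM in WT + TAM, 3.36 ± 0.338 CPM in Mtm1-/y and 3.49 ± 0.381 CPM in Mtm1-/y + TAM (SD), with no overlap between genotypes. A pair of libraries stood apart for genes described here. WT + TAM replicate 1 had a summed level of 1239 CPM over the 7 slow-fibre genes, against 55.6 to 232 CPM in the other 14 libraries, and 439 CPM of Myh7, the slow myosin heavy chain, against 1.45 to 37.7 CPM. The same library had the lowest Actc1 of the 8 wild-type libraries. Mtm1-/y replicate 1 had the lowest Actc1 of all 15. The comparisons of Actc1 and C130080G10Rik that include them, and the correlation of this pair, are given with and without them. Ranks of other genes by likeness are given with them only.

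Actc1 and C130080G10Rik lie head to head on chromosome 2. In GENCODE M21 on GRCm38, Actc1 (ENSMUSG00000068614) occupies chr2:114047282-114053548 on the minus strand and C130080G10Rik (ENSMUSG00000092397) chr2:114054335-114064868 on the plus strand, with 787 bases between their 5′ ends and 0 exonic bases in common. C130080G10Rik shares 1001 of its 2586 exonic bases with another transcript of the same strand, A530058N18Rik, which spans chr2:114013563-114068324, so a read from these shared exons cannot be given to 1 of them. Of the windows of 50 bases in the C130080G10Rik transcript, 45.9% were also found in A530058N18Rik, while for Actc1 the share found in any other gene was 0.0%. The share was 2.22% for Acta1 (ENSMUSG00000031972, chr8:123891769-123894751), 0.352% for Acta2 (ENSMUSG00000035783, chr19:34241090-34255590), 14.2% for Actb (ENSMUSG00000029580, chr5:142903115-142906754) and 56.7% for Actg1 (ENSMUSG00000062825, chr11:120345690-120348542), all 4 on the minus strand. The windows of Actg1 were found mainly in processed copies of the gene, so its counts are less certain than those of the other actins.

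The promoter sequences of Actc1 and C130080G10Rik are shown because these genes face each other, and that of Acta1 because it is the other sarcomeric actin. They run from 250 bases before to 50 bases after the RefSeq start on GRCm38.p6, and RefSeq held such a sequence for 5 of the 6 genes. Capitals mark matches to TATAAA, the CArG box, which is the motif of serum response factor, and the MEF2 box, the motif of the muscle factor MEF2, all searched on both strands. The Actc1 window is chr2:114052826-114053125 on the minus strand, the C130080G10Rik window chr2:114054146-114054445 on the plus strand, and the Acta1 window chr8:123894726-123895025 on the minus strand.
Actc1: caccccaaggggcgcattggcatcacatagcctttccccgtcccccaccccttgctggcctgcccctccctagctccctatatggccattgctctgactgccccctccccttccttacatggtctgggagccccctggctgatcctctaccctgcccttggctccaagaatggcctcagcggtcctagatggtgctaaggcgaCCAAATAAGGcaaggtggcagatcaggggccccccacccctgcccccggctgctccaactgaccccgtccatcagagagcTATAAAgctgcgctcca
C130080G10Rik: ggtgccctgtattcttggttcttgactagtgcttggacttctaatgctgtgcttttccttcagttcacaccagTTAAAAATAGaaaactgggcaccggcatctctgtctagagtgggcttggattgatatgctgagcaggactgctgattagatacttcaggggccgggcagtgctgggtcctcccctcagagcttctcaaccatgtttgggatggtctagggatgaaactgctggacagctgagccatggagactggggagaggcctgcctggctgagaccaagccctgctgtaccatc
Acta1: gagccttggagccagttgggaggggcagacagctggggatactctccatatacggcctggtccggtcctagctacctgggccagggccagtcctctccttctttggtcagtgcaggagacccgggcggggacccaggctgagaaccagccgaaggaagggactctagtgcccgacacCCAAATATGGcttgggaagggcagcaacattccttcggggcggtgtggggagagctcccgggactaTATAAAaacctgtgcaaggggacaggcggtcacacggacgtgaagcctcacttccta
In the Actc1 window a CArG box began at position -47 and TATAAA at position 33, counted from the RefSeq start, which lay 673 bases downstream of the outermost GENCODE start. The Acta1 window held a CArG box at position -73 and TATAAA at position -7. The C130080G10Rik window held neither and had a MEF2 box at position -177. No marked match overlapped another. A CArG box was present in 1.63% of the 32817 promoters searched, TATAAA in 13.6% and a MEF2 box in 3.19%. The E-box letters CANNTG were found in all 3 windows and in 72.3% of promoters. In the windows not printed, Actg1 held a CArG box at position -90, and Acta2 held no match to TATAAA, the CArG box or the MEF2 box in the letters searched. The search counted exact matches only, so sites that differ from these letters in any base were missed in every window.

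Acta1 was the most abundant of the 6 genes in every group. Per kilobase of exon it reached 32512 ± 4797 CPM in WT, 33457 ± 2533 CPM in WT + TAM, 24074 ± 4474 CPM in Mtm1-/y and 26393 ± 2396 CPM in Mtm1-/y + TAM (SD). Actc1 came next in every group, from 3127 ± 1511 CPM per kilobase in WT down to 293 ± 237 in Mtm1-/y. Actb followed at 50.6 to 59.0 CPM per kilobase over the group means, then Acta2 at 16.6 to 28.7. The lowest places were held by Actg1 and C130080G10Rik, whose order differed between groups. Of their windows of 50 bases, 56.7% and 45.9% were also found in other genes, so their levels per kilobase are less certain. C130080G10Rik was above Actg1 in WT (6.21 ± 4.20 against 4.76 ± 0.889 CPM per kilobase), where their libraries overlapped, and far below it in Mtm1-/y (0.0682 ± 0.0462 against 2.82 ± 0.210). Neighbours in this order did not overlap between libraries, except C130080G10Rik and Actg1 in WT and in WT + TAM, and Actc1 and Actb in Mtm1-/y, where replicate 1 had an Actc1 level of 23.8 CPM per kilobase.

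**Figure D1:**
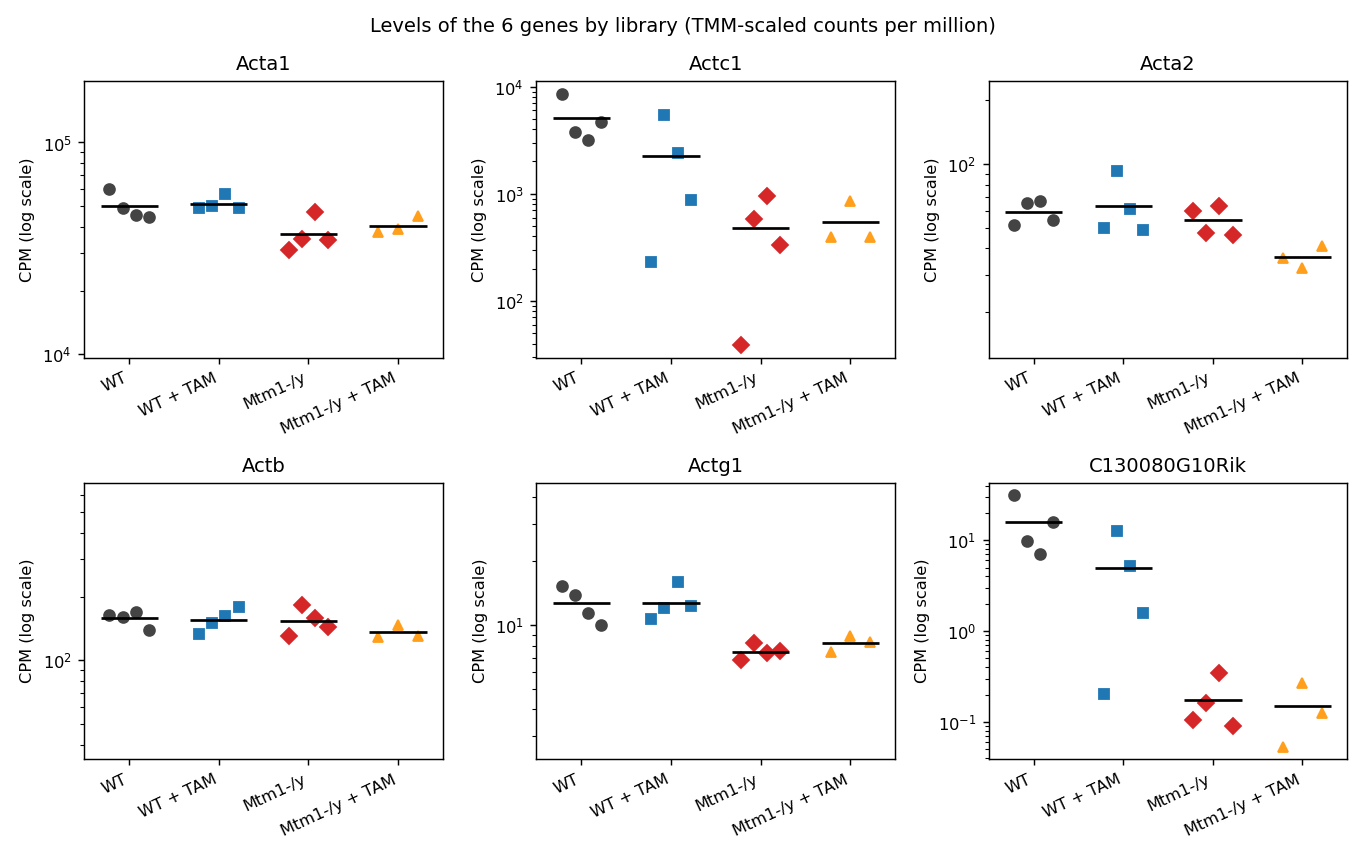
Levels of the 6 genes in each library as TMM-scaled CPM on log axes whose ranges differ between panels, with 1 point per library and a bar at the group mean. Actc1 (38.6 to 8602 CPM) and C130080G10Rik (0.0530 to 31.3 CPM) have the widest ranges, and their Mtm1-/y libraries all lie below the WT libraries.

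Actc1 varied more between libraries than any other actin. In WT, replicates 1 to 4 had 8602, 3788, 3152 and 4696 CPM. In WT + TAM the values were 228, 5438, 2392 and 872 CPM, so that the group ran from the range of WT down into that of the mutants. Mtm1-/y libraries had 38.6, 577, 945 and 335 CPM, and Mtm1-/y + TAM libraries had 393, 848 and 397 CPM. All 7 mutant libraries were below all 4 WT libraries. For Mtm1-/y against WT alone, 15.7% of genes tested lay lower without overlap. Expressed as a share of the 2 sarcomeric actins per length, Actc1 made up 8.49 ± 2.59% in WT, 3.82 ± 3.95% in WT + TAM, 1.11 ± 0.773% in Mtm1-/y and 1.28 ± 0.652% in Mtm1-/y + TAM (SD).

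C130080G10Rik was found at a far lower level. WT libraries had 31.3, 9.72, 7.08 and 16.0 CPM, from 1274, 246, 160 and 547 counts. WT + TAM libraries had 0.204, 12.7, 5.16 and 1.60 CPM, with only 5 counts in replicate 1. In Mtm1-/y the values were 0.105, 0.161, 0.350 and 0.0896 CPM, from 4 to 11 counts, and in Mtm1-/y + TAM they were 0.0530, 0.265 and 0.126 CPM, from 1 to 10 counts. The transcript was thus near the limit of detection in mutant muscle at this depth, where differences among mutant libraries are differences of a few counts.

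The other actins covered narrow ranges. Acta1 lay at 44454 to 60559 CPM in WT, 49044 to 57192 in WT + TAM, 31010 to 46889 in Mtm1-/y and 37943 to 44751 in Mtm1-/y + TAM. Mtm1-/y replicate 3, at 46889 CPM, and Mtm1-/y + TAM replicate 3, at 44751 CPM, were the mutant libraries above the lowest WT library. Acta2 lay at 51.6 to 67.1 CPM in WT, 48.7 to 92.5 in WT + TAM, 46.1 to 63.4 in Mtm1-/y and 32.4 to 40.9 in Mtm1-/y + TAM, and the last group was below every other library. Actb lay at 139 to 168, 134 to 178, 131 to 181 and 129 to 147 CPM in the same order of groups, which overlapped throughout. Actg1 lay at 10.03 to 15.3 and 10.6 to 15.9 CPM in the untreated and treated wild-type groups and at 6.83 to 8.19 and 7.47 to 8.84 CPM in the mutants, with no overlap between genotypes. Of genes tested, 15.7% lay lower without overlap between untreated and 14.4% between treated genotypes. The share separated over all groups at once, as for Acta2 and Actg1, was not computed.

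Between untreated mutant and WT muscle, which is the comparison that brought C130080G10Rik into the group, C130080G10Rik had a log2 fold change (log2FC) of -6.55 ± 1.07 (SE), or 93.8-fold lower. Actc1 had a log2FC of -3.42 ± 0.975, Actg1 of -0.76 ± 0.145, Acta1 of -0.43 ± 0.146, Acta2 of -0.14 ± 0.182 and Actb of -0.04 ± 0.114 (SE). The values of Actc1, Actg1 and C130080G10Rik did not overlap between these groups, and 15.7% of the genes tested lay lower in Mtm1-/y without overlap. Without Mtm1-/y replicate 1 the log2FC of Actc1 was -3.03 and that of C130080G10Rik was -6.37. In bulk muscle, fewer cells of a type and less RNA per cell cannot be told apart.

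Treated mutant and treated wild-type muscle offered the genotype comparison in libraries outside the fold change that had brought in C130080G10Rik. The genes were still chosen with earlier results of these data known. The fit also took its spread from all 15 libraries, so these tests are not fully independent of that choice. All 6 genes had lower estimates in Mtm1-/y + TAM than in WT + TAM, and 3 of them were called by edgeR at an adjusted p under 0.05, all lower, where 9.46% of the 15533 genes tested were called lower and 20.1% in either direction. C130080G10Rik had a log2FC of -4.86 ± 1.23 (SE), or 29.1-fold lower (adjusted p = 0.0151). Acta2 had a log2FC of -0.79 ± 0.200 (adjusted p = 0.0127) and Actg1 of -0.64 ± 0.158 (adjusted p = 0.0111).

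The sarcomeric actins did not pass this test. Actc1 had a log2FC of -2.03 ± 1.03 (adjusted p = 0.186) and Acta1 of -0.34 ± 0.159 (adjusted p = 0.142), and the cytoplasmic Actb had -0.20 ± 0.124 (adjusted p = 0.284). Treated libraries of the 2 genotypes did not overlap for Acta1, Acta2 and Actg1, as was the case in the lower direction for 14.4% of genes tested. For Actc1 the overlap came from WT + TAM replicate 1, at 228 CPM, since the other 3 treated wild-type libraries were at 872 CPM or more and the treated mutants at 848 CPM or less. The same library, at 0.204 CPM, was the only overlap for C130080G10Rik.

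Leaving out WT + TAM replicate 1 gave Actc1 a log2FC of -2.41 (adjusted p = 0.0819) and C130080G10Rik one of -5.25 (adjusted p = 0.00267). Without WT + TAM replicate 2, the highest of its group, Actc1 had a log2FC of -1.09 (adjusted p = 0.475) and C130080G10Rik one of -3.86 (adjusted p = 0.0282). For Actc1 limma-voom gave -1.33 (adjusted p = 0.445). With both libraries that stood apart left out, Actc1 had a log2FC of -2.41 and passed the threshold (adjusted p = 0.0273). Both had been singled out in part by their low Actc1, so this p-value follows a choice made on Actc1 itself. Mtm1-/y replicate 1 is in neither group of this comparison and shares only the fit and its estimate of the spread. The call of C130080G10Rik was lost without Mtm1-/y + TAM replicate 1, 2 or 3 (adjusted p = 0.0539, 0.0558 and 0.0623), in a fit of the treated libraries alone (adjusted p = 0.0622) and in limma-voom, with a log2FC of -3.86 (adjusted p = 0.247). Acta2 lost its call without Mtm1-/y + TAM replicate 2 (log2FC -0.71, adjusted p = 0.0670), and Actg1 without Mtm1-/y + TAM replicate 1 (log2FC -0.58, adjusted p = 0.0514).

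**Figure D2:**
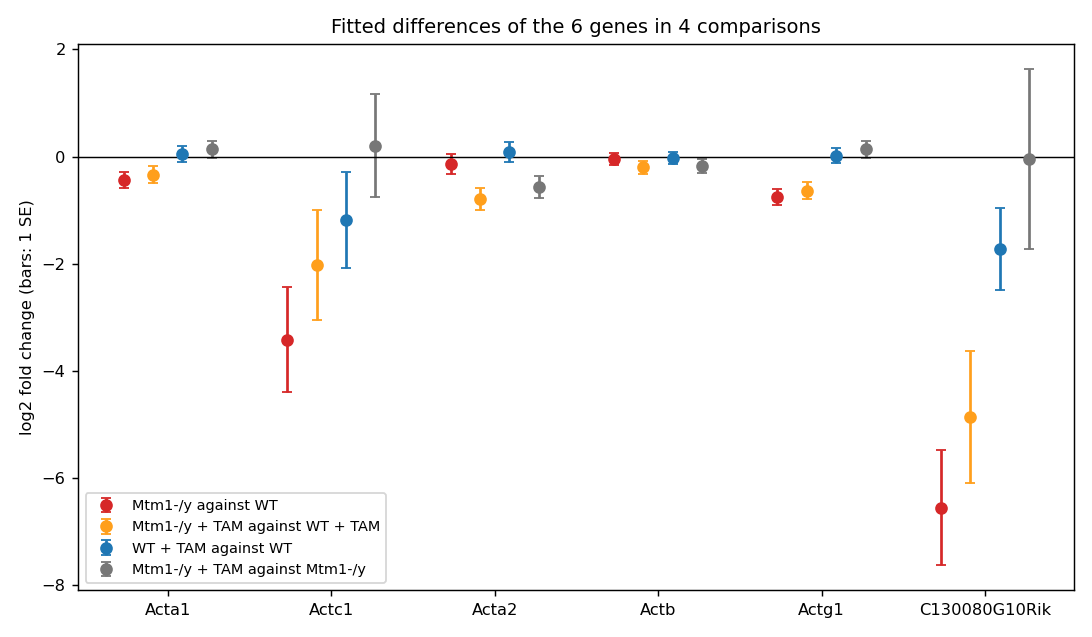
Fitted log2 fold changes of the 6 genes in 4 comparisons, with bars of 1 SE from the edgeR fit. The 2 genotype comparisons lie furthest below 0 for C130080G10Rik (-6.55 and -4.86) and Actc1 (-3.42 and -2.03), and the tamoxifen comparisons have no gene past the threshold.

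Markers of smooth muscle were read beside Acta2, the smooth muscle actin. Of the 9 smooth muscle genes other than Acta2, 3 were called lower and 0 higher in Mtm1-/y + TAM against WT + TAM. Of all genes tested, 9.46% were called lower there. The summed level of the 9 genes was 775 to 896 CPM in treated mutants and 948 to 1171 CPM in treated wild-type muscle. Myh11, the smooth muscle myosin heavy chain, was at 24.0 ± 3.42 against 41.8 ± 4.28 CPM (log2FC -0.80 ± 0.157, adjusted p = 0.00283). In untreated muscle the summed level was 799 to 1055 CPM in Mtm1-/y and 1011 to 1218 CPM in WT. There 1 of the 9 genes was called lower, against 14.9% of genes tested, and Acta2 had a log2FC of -0.14 ± 0.182 (SE). Whether the level of smooth muscle markers had a part in the treated Acta2 result was not tested. The other actin genes added little, with a summed level of Actg2 and Actbl2 of 0.403 to 1.42 CPM over all libraries.

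Tamoxifen was compared within each genotype, in comparisons that share the untreated libraries with the one that chose C130080G10Rik. In wild-type muscle edgeR called 0 of the 6 genes, against 0.309% of genes tested, and 1 of them had an unadjusted p under 0.05. That gene was C130080G10Rik, with a log2FC of -1.73 ± 0.767 (adjusted p = 0.418), beside -1.18 ± 0.899 for Actc1 (adjusted p = 0.671). In mutant muscle 0 of the 6 were called, against 0.0129% of genes tested, and again 1 had an unadjusted p under 0.05. Here it was Acta2, at 36.5 ± 4.24 CPM with and 54.2 ± 8.70 CPM without tamoxifen (log2FC -0.57 ± 0.199, adjusted p = 0.855), with no overlap between the libraries of these groups, as held in the lower direction for 2.38% of genes tested. The log2FC of Actc1 with tamoxifen in mutants was 0.20 ± 0.956 and that of C130080G10Rik was -0.04 ± 1.68 (SE), too wide to show a difference of several-fold in either direction. Without WT + TAM replicate 1, the log2FC with tamoxifen in wild-type muscle was -0.80 for Actc1 (adjusted p = 0.790) and -1.34 for C130080G10Rik (adjusted p = 0.461). Without Mtm1-/y replicate 1, that in mutants was -0.18 for Actc1 and -0.22 for C130080G10Rik (adjusted p = 1 for both), so the estimate for Actc1 changed sign with this library.

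The genotype difference itself was then compared between treated and untreated mice. The interaction called 0 of the 6 genes and 0.0% of genes tested, and 1 of the 6, Acta2, had an unadjusted p under 0.05 (log2FC -0.65 ± 0.269, adjusted p = 0.425). Actc1 had an interaction of 1.38 ± 1.30 (adjusted p = 0.718) and C130080G10Rik one of 1.69 ± 1.88 (adjusted p = 0.763). Without both WT + TAM replicate 1 and Mtm1-/y replicate 1 these were 0.62 (adjusted p = 0.850) and 1.14 (adjusted p = 0.873). DESeq2 and limma-voom also called 0 of the 6 in these 3 tamoxifen comparisons.

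Whether C130080G10Rik and Actc1 move together was asked from library to library after the group means were removed from log2 CPM. Over the 15 libraries Pearson's r was 0.804 (exact permutation within groups, two-sided, p = 0.000398, adjusted p = 0.00597 over the 15 pairs of the 6 genes) and Spearman's rho was 0.807 (exact p = 0.00181, adjusted p = 0.0271). This was the only pair to pass with r. For rho, the adjusted p of the exact permutation test was 0.0480 both for Acta1 with Actc1 (rho = 0.661) and for Acta1 with Actg1 (rho = 0.729). The remaining pairs had r from -0.160 to 0.591 without passing.

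Mtm1-/y replicate 1 and WT + TAM replicate 1 lay farthest from the median of Actc1 about the group means. Without both, r over the 13 other libraries was 0.972 (exact permutation p = 0.000193), and without Mtm1-/y replicate 1 alone it was 0.987. In that library Actc1 was 2.91 log2 units below its group mean and C130080G10Rik only 0.39 below, at 4 counts.

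Within each genotype log2 CPM was first used with the group means left in, and libraries were permuted across both treatments. In the 8 wild-type libraries Pearson's r was 0.996 (exact permutation p = 4.96e-05, adjusted p = 9.92e-05 over 2 genotypes) and rho was 0.976 (exact p = 0.000397, adjusted p = 0.000794). Without WT + TAM replicates 1 and 4, the farthest from the Actc1 median, r over 6 libraries was 0.975 (exact permutation p = 0.00278). With the group means removed and permutation within groups, an alternative chosen after seeing the data, r was 0.995 (exact permutation p = 0.00174, adjusted p = 0.00347 over 2 genotypes). These 8 libraries spanned 228 to 8602 CPM of Actc1 and 0.204 to 31.3 CPM of C130080G10Rik.

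In the 7 mutant libraries r was 0.538 (exact permutation p = 0.229, adjusted p = 0.229) and rho was 0.857 (exact p = 0.0238, adjusted p = 0.0238). Without Mtm1-/y replicates 1 and 3, r over 5 libraries was 0.882 (exact permutation p = 0.0417). With the group means removed and permutation within groups, r was 0.616 (exact permutation p = 0.160, adjusted p = 0.160) and rho was 0.786 (exact p = 0.0486, adjusted p = 0.0486). Counts of C130080G10Rik in these libraries were 1 to 11, and Mtm1-/y replicate 1 combined the lowest Actc1 with 4 counts of C130080G10Rik.

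**Figure D3:**
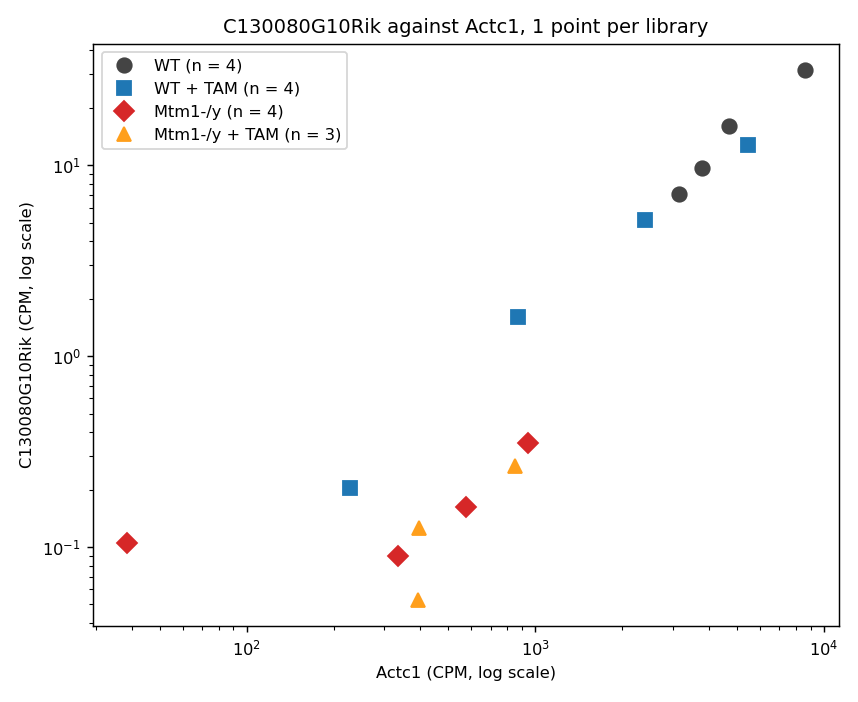
C130080G10Rik against Actc1 in TMM-scaled CPM, both on log axes, with 1 point per library and a symbol per group. The 8 wild-type libraries lie along a line (r = 0.996), and mutant libraries with Actc1 at 848 and 945 CPM lie below the wild-type library at 872 CPM.

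A wild-type and a pair of mutant libraries had nearly the same Actc1 level. WT + TAM replicate 4 had 872 CPM of Actc1 and 42 counts of C130080G10Rik (1.60 CPM). Mtm1-/y replicate 3 had 945 CPM of Actc1 and 11 counts of C130080G10Rik (0.350 CPM), and Mtm1-/y + TAM replicate 2 had 848 CPM and 10 counts (0.265 CPM).

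C130080G10Rik was therefore also expressed per 1000 Actc1 counts, a measure chosen after these values had been seen. WT libraries had 3.64, 2.57, 2.25 and 3.42, and WT + TAM libraries 0.895, 2.34, 2.16 and 1.84. Mtm1-/y libraries had 2.71, 0.279, 0.370 and 0.267, and Mtm1-/y + TAM libraries 0.135, 0.312 and 0.317. Treated mutants were below all treated wild-type libraries, by 2.84 on average on the log2 scale. Among wild-type libraries the measure was 3.64 at the highest Actc1 level, 8602 CPM, and 1.84 and 0.895 at the lowest, 872 and 228 CPM. Treated mutants had 393 to 848 CPM of Actc1. How far the difference goes with their lower Actc1 was not tested. No test is given, since the measure was chosen on these libraries. In the untreated groups replicate 1 of Mtm1-/y fell among the WT values, on 4 counts of C130080G10Rik against 1475 of Actc1, and the other 3 lay below them.

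**Figure D4:**
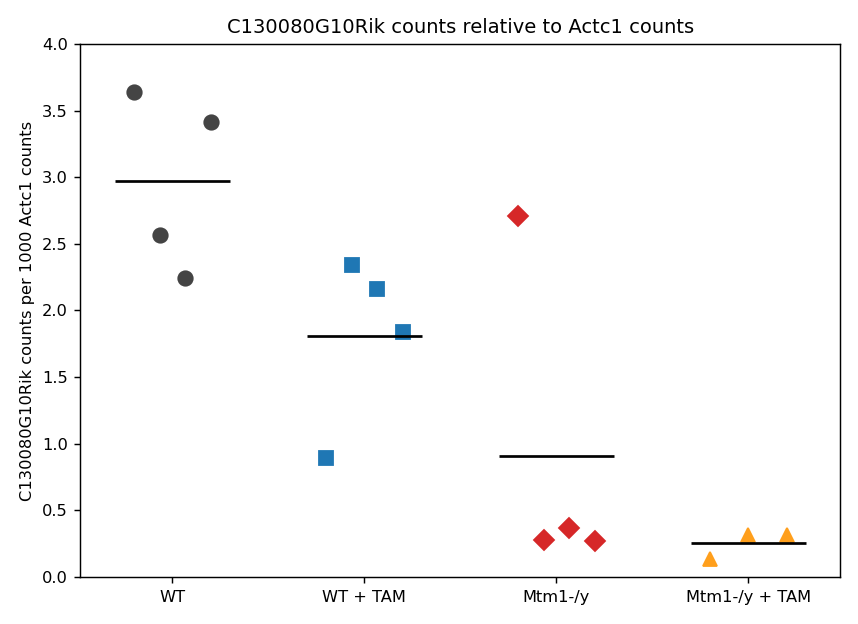
C130080G10Rik counts per 1000 Actc1 counts in each library, with a bar at the group mean, on a linear axis from 0. Wild-type libraries lie between 0.895 and 3.64 and mutant libraries between 0.135 and 0.370, except Mtm1-/y replicate 1 at 2.71.

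Other tested genes of the neighbourhood had smaller genotype differences than this pair, apart from the transcript that overlaps C130080G10Rik. The table held 12 genes within 500 kb of Actc1, of which 8 were tested, among them Actc1 and C130080G10Rik. A530058N18Rik had 141, 33, 27 and 60 counts in WT, 0, 31, 24 and 1 in WT + TAM, 0 in all 4 Mtm1-/y libraries and 0, 1 and 3 in Mtm1-/y + TAM. With a floor of 3 counts over the Mtm1-/y group its pooled level in WT, 2.00 CPM by library size, was at least 88.3-fold higher. In the treated comparison its log2FC was -3.57 ± 1.42 (adjusted p = 0.102).

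Of the other 5 tested neighbours, 0 were called between treated genotypes by edgeR, DESeq2 or limma-voom, and 0 had an unadjusted p under 0.05 in edgeR. Of all genes tested, edgeR called 20.1% there, so a count of 0 among 5 genes says little. The log2FC there was 0.65 ± 0.471 for Fmn1, a formin, -0.25 ± 0.215 for Arhgap11a, -0.15 ± 0.0928 for Aqr, an RNA helicase of the spliceosome, -0.11 ± 0.248 for Zfp770 and -0.15 ± 0.140 for Dph6 (SE, adjusted p from 0.290 for Aqr to 0.795 for Zfp770). Between untreated genotypes only Arhgap11a was called among these 5, at -0.67 ± 0.196 (adjusted p = 0.0177), where 14.9% of genes tested were called lower. Grem1, Scg5, Gm21596 and Gjd2 had 2 to 46 counts over all 15 libraries and were not tested.

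Genes with the profile most like Actc1 were found elsewhere in the genome. Over log2 CPM in the 15 libraries, the highest r with Actc1 was that of Mgll (0.971), and Ssx2ip (0.959), Gm8116 (0.955) and Ostm1 (0.954) were also among the 5 highest, while C130080G10Rik came 63rd (0.894). With group means removed, the nearest were Itga4 (0.952), Mgll (0.951), Fbxl22 (0.949), Cox20 (0.947) and Ostm1 (0.946), and C130080G10Rik came 315th. For C130080G10Rik the nearest were Tmem185a (0.974), A530058N18Rik (0.960), Afg3l1 (0.950), Ostm1 (0.946) and Tmem123 (0.945), with Actc1 79th. With group means removed they were Sco1 (0.921), AW551984 (0.902), A530058N18Rik (0.894), Eif4e (0.883) and Mark2 (0.882), with Actc1 46th. All ranks used the 15 libraries, among them Mtm1-/y replicate 1. Without it, r of C130080G10Rik with Actc1 about the group means was 0.987, and the ranks were not computed again. The libraries come from 4 groups and differ in depth, and the ranks are descriptive.

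Transcripts of proteins that cap, cross-link and stabilise the thin filament differed in both directions between treated genotypes. Of 16 thin filament and Z-disc partners, edgeR called 5 higher and 2 lower, with a median log2FC of 0.09 beside -0.02 over all genes tested. Of all genes tested, 10.6% were called higher and 9.46% lower. Xirp1, which binds actin at sites of filament assembly, rose from 137 ± 46.2 CPM in WT + TAM to 441 ± 172 CPM in Mtm1-/y + TAM (log2FC 1.68, adjusted p = 0.00166). Klhl40, a kelch protein that stabilises nebulin, rose from 121 ± 18.4 to 281 ± 29.4 CPM (1.22, adjusted p = 0.00144). Actn2, an alpha-actinin of the Z-disc, rose from 1432 ± 613 to 2644 ± 312 CPM (0.88, adjusted p = 0.0173). The 2 called lower were Actn3 (log2FC -0.53, adjusted p = 0.00875) and Capza2 (-0.42, adjusted p = 0.0381). In untreated muscle 6 of the 16 were called higher and 2 lower, against 15.5% and 14.9% of genes tested.

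Among 25 genes of actin turnover, 4 were called higher and 1 lower between treated genotypes (median log2FC 0.02), and 4 in each direction between untreated ones. Of all genes tested, 20.1% were called in either direction between treated genotypes. Between untreated ones 15.5% were called higher and 14.9% lower, so the counts of this list were near the shares of all genes. Diaph1, a formin that nucleates filaments, rose from 117 ± 33.1 to 211 ± 35.9 CPM (log2FC 0.85, adjusted p = 0.00890). Wdr1, a partner of cofilin in filament disassembly, rose from 58.5 ± 6.26 to 84.2 ± 21.02 CPM (0.52, adjusted p = 0.0375). Dstn, the depolymerising factor destrin, fell from 22.4 ± 2.78 to 16.3 ± 1.36 CPM (-0.46, adjusted p = 0.0252).

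Of the 4 actin lists, actin folding and modification was the one with calls in 1 direction between treated genotypes. Of its 17 genes, which encode the chaperonin TRiC, prefoldin and actin-modifying enzymes, 6 were called higher and 0 lower between treated genotypes (median log2FC 0.25 beside -0.02 over all genes), and 5 higher and 0 lower between untreated ones, where 10.6% and 15.5% of genes tested were called higher. The prefoldin subunit Pfdn5 rose from 52.8 ± 4.12 to 79.7 ± 3.07 CPM (log2FC 0.59, adjusted p = 0.000591). The chaperonin subunits Cct3 (76.3 ± 4.37 to 107 ± 10.3 CPM, 0.48, adjusted p = 0.00515) and Cct8 (111 ± 7.78 to 153 ± 13.6 CPM, 0.46, adjusted p = 0.00420) rose as well.

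Serum response factor (SRF) and its actin-regulated cofactors of the MRTF family drive many actin genes. The SRF and MRTF list of 14 genes holds these factors, regulators and classical targets. Between treated genotypes 2 of the 14 were called higher and 4 lower (median log2FC -0.37), against 10.6% and 9.46% of genes tested. Between untreated ones 2 were called higher and 7 lower, against 15.5% and 14.9%. Fhl2, a LIM protein and cofactor of SRF, rose from 1.54 ± 0.819 to 6.33 ± 2.16 CPM (log2FC 2.06, adjusted p = 0.00356). Abra, an actin-binding protein that promotes nuclear entry of MRTF, rose from 139 ± 39.5 to 273 ± 16.5 CPM (0.97, adjusted p = 0.0103). Myl9, a myosin light chain of smooth muscle and non-muscle cells, fell from 60.4 ± 19.1 to 25.1 ± 4.83 CPM (-1.26, adjusted p = 0.00365).

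Since Actc1 is also the actin of heart and of developing muscle, markers of both were read beside it. Of the 7 heart-restricted genes only 2 passed the filter, and 0 were called by edgeR, DESeq2 or limma-voom in any comparison. In edgeR 0 had an unadjusted p under 0.05 for either genotype comparison, and 1 had for WT + TAM against WT. With 20.1% of all genes called between treated genotypes, a count of 0 among 2 genes says little. Nppb, Mybpc3 and Myl7 had 0 to 3 counts in every library. The summed level of the 7 was 3.16 to 5.90 CPM in WT and 4.26 to 6.83 CPM in Mtm1-/y, and 106 CPM in WT + TAM replicate 1, where Myh6 had 2576 counts and Actc1 was low. The fetal muscle list moved against Actc1, with 6 of 7 genes called higher and 0 lower between treated genotypes (median log2FC 2.06) and a summed level of 198 to 274 CPM in Mtm1-/y + TAM against 41.1 to 73.2 CPM in WT + TAM. In untreated muscle all 7 were called higher, at 143 to 274 CPM in Mtm1-/y against 39.4 to 49.9 CPM in WT. Of all genes tested, 10.6% were called higher between treated and 15.5% between untreated genotypes.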

How the data were processed

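Tools named in the submitters' notes were STAR 2.5.3a and Bowtie2 2.2.8, with cutadapt 1.10 and HTSeq 0.6.1p1, and the build was GRCm38 (mm10). The role of each tool, annotation release, strand setting and read length were not given in the sources used here. Deposited values are raw counts per Ensembl gene, not normalized by the authors, from TruSeq stranded mRNA libraries. All 30672 identifiers matched GENCODE M21. Promoter sequences came from RefSeq, and the windows of 50 bases from GENCODE M21 transcripts.

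Counts were fitted with edgeR 4.0.16 in R 4.3.3 (filterByExpr with a minimum count of 10, 15533 genes, TMM, robust quasi-likelihood fit of 4 group means to all 15 libraries, 11 residual degrees of freedom). A gene was called at a Benjamini-Hochberg adjusted p under 0.05 over all genes tested. Log2 CPM used a prior count of 2. Library correlations were tested by exact permutation with numpy 2.4.6. The fit was tested on simulated counts. A count of 0 allows up to 3 counts, and such floors cover counting error only.

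Alternatives were RLE and upper-quartile factors, 2 other filters, DESeq2 1.42.0, limma-voom (limma 3.58.1), a replicate block and left-out libraries. The genes, the 4 actin lists (thin filament and Z-disc partners, actin turnover, actin folding and modification, SRF and MRTF) and the marker lists (other actin genes, fetal muscle, slow fibre, fast fibre, heart-restricted, smooth muscle, pericyte, endothelial, macrophage, fibroblast) were chosen with earlier results of these data known. From each actin list, the 3 called genes with the largest absolute log2FC between treated genotypes and a mean log2 CPM of at least 1 were named. Actn3 and Capza2 were added as the thin filament and Z-disc partners called lower. All genes within 500 kb of Actc1 and the 5 genes most like Actc1 or C130080G10Rik were also named, except 1 of the latter that is not reported here.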

Additional observations from a re-analysis of the deposited data

Results flagged for a closer look

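Each group of 4 libraries was searched for a library far from the other 3 in the level of the 6 genes, in the Actc1 share and in the ratio of C130080G10Rik to Actc1. Of 24 such groups 2 were flagged, and chance flags about 1 in 20 groups. Acta1 in WT + TAM replicate 3 was 57192 CPM, above 49044 to 50043 CPM in the other 3 libraries of the group. C130080G10Rik in Mtm1-/y replicate 1 was 2.71 per 1000 Actc1 counts, against 0.267 to 0.370 in the others, and rested on 4 counts of C130080G10Rik and 1475 of Actc1.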

How the results depend on the processing

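Over all alternatives tried, the treated genotype comparison called 1 to 4 of the 6 genes in place of 3, and all 6 estimates stayed below 0. Leaving out 1 library at a time gave 1 to 3 calls there and 0 to 1 call among the other genes near Actc1. That call was A530058N18Rik, made without WT + TAM replicate 1 and, as 1 call, without it and Mtm1-/y replicate 1 together. With 1 library left out, the log2 difference between treated genotypes in C130080G10Rik per Actc1 ranged from -3.15 to -2.43. The log2FC of Actb between untreated genotypes, -0.04, ranged from -0.132 to 0.0270 with 1 library left out, turning above 0 without Mtm1-/y replicate 1, and was 0.0269 without it and WT + TAM replicate 1 together. The correlation of C130080G10Rik and Actc1 had an unadjusted exact permutation p under 0.05 in all 21 alternatives, with r or rho from 0.703 to 0.987. With all genes, the treated genotype comparison called 1656 without Mtm1-/y + TAM replicate 2, against 3121, and tamoxifen in wild-type muscle called 287 in DESeq2, 111 without WT + TAM replicate 1 and 11 without WT replicate 1, against 48. In mutants tamoxifen called 2 genes, and 0 to 7 over the alternatives, and the interaction called 0, and 66 in DESeq2.

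Same-numbered libraries deviated together only weakly (r from -0.113 to 0.306 over 21 pairs, 6 of them over 0.1), and 5 of 15 libraries correlated best with their own number, so the numbers were not taken to pair mice. A replicate block left 3 of the 6 genes called between treated genotypes and 0 in the tamoxifen comparisons, and gave r = 0.750 (exact permutation p = 0.0119) for C130080G10Rik with Actc1. The low counts of C130080G10Rik in mutants, 1 to 11 per library, limit what can be said of its variation there.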

Other observations

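Of 7 endothelial genes 4 were called lower and 0 higher by edgeR between treated genotypes, and 6 lower between untreated ones, with a summed level of 253 to 365 CPM in Mtm1-/y against 463 to 609 CPM in WT. Of 5 pericyte genes 3 were called lower and 1, Cspg4, higher in both comparisons, and their summed level was 270 to 378 CPM in Mtm1-/y against 481 to 605 CPM in WT. Treated groups were at 265 to 332 against 308 to 579 CPM for the endothelial and 293 to 364 against 367 to 538 CPM for the pericyte genes. Of all genes tested, 9.46% were called lower and 10.6% higher between treated genotypes, and 14.9% and 15.5% between untreated ones.

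Fast-fibre genes, which define tibialis anterior, had a summed level of 93373 to 149336 CPM over all libraries, and 1 of 7, Actn3, was called lower between treated genotypes. Of the 7 slow-fibre genes, 1, Myl3, was called lower there (log2FC -3.33, adjusted p = 0.000775). The median log2FC of the 7 was -0.81 between treated and 0.87 between untreated genotypes. Their summed level was 103 to 232 CPM in Mtm1-/y + TAM. In WT + TAM it was 1239 CPM in replicate 1 and 55.6 to 100 CPM in the other libraries, below the treated mutants. Of 8 macrophage genes edgeR called 0 in treated muscle (2 at an unadjusted p under 0.05, 1 called by DESeq2 and 0 by limma-voom) and 1, higher, in untreated mutants. Of 6 fibroblast genes it called 0 in treated muscle (1 at an unadjusted p under 0.05, 0 by DESeq2 and limma-voom) and 1, higher, in untreated mutants. Of all genes tested, 10.6% were called higher and 9.46% lower between treated genotypes. Between untreated ones 15.5% were called higher and 14.9% lower, so the counts of these short lists say little. The summed macrophage level ranged from 19.95 to 71.4 CPM over all libraries. The summed fibroblast level ranged from 358 CPM in an Mtm1-/y library to 4695 CPM in a WT + TAM library.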
